A study of Mus musculus with 4 samples.

Results

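Prx, Pmp2, Pmp22 and Egr2 are genes of the myelinating Schwann cell, the glial cell that wraps axons in the nerve roots and peripheral nerves. They were taken by name from a table of 18674 gene names measured in lumbar spinal cord, and all 4 were present, in 5 of its 23750 rows. Of these rows 2 belong to Prx and were averaged. The 4 libraries were from wild type (WT) mice and from G93A mice, each given vehicle (PBS) or spermidine (SD), with 1 library per combination, called WT vehicle and WT + SD, and G93A vehicle and G93A + SD. The G93A mice were of the H1 high-expresser line on a B6/SJLF1 background, and carry a human SOD1 transgene with the G93A mutation under the human SOD1 promoter, which is active in most cell types. The mice were males of 100 days of age. By the sample labels SD, a polyamine, or PBS was given 4 times a week for 30 days, and the study's methods, which describe more than 1 schedule, give intraperitoneal injection at 5 mg/kg. The number of mice behind a library is not given in the sources used here. With 1 library per condition no difference had a replicate check, so no test was made and no p-value is given. The values are RPKM, reads per kilobase of transcript and per unit of sequencing depth. Depth was estimated at 36800000 to 38600000 read pairs per library, from the most frequent low step in the values within a range set beforehand. Of 683 to 761 low values per library, 167 to 186 lay at that step, so read pairs given below are rough. A gene was called higher or lower where 2 libraries differed at least 1.5-fold on the scale of log2(RPKM + 0.1), which understates the differences of low genes.

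In the central nervous system myelin is made by oligodendrocytes, whereas Schwann cells make it from the root outwards. Schwann cells switch on their myelin genes under Egr2 (Krox-20), a zinc finger transcription factor that acts together with Sox10. Pmp22 is a membrane protein of compact peripheral myelin, and its dosage is known for inherited neuropathy. Pmp2 (myelin P2) is a fatty acid binding protein of the same membrane. Prx (periaxin) is a scaffold that ties the Schwann cell surface to dystroglycan through Drp2. None of these genes is fully private to Schwann cells. Egr2 is also an immediate early gene that activated macrophages and neurons can express, and Pmp22 is transcribed in many tissues from a second promoter.

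Sequences before the start sites are shown for the members that have an entry in the RefSeq promoter table (GRCm38.p6), since Egr2 and Prx were both higher in the G93A libraries and since Pmp22 has separate starts. Each run is the 250 bases before an annotated start, 5′ to 3′ on the plus strand. Prx and Egr2 are shown at the starts of the transcripts that the table lists. The Pmp22 runs end at the first annotated start and at the start nearest to that of its listed transcript. Pmp2 had no entry. Capitals mark a CArG box, the element bound by serum response factor, which many immediate early genes carry. Egr2 is also shown at an earlier start, whose window holds a second CArG box.
Egr2 earlier start, chr10:67537316-67537565: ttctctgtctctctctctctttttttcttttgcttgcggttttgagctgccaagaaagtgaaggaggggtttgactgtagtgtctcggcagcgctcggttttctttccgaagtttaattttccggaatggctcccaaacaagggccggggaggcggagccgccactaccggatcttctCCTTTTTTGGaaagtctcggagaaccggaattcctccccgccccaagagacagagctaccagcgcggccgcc
Egr2, chr10:67537619-67537868: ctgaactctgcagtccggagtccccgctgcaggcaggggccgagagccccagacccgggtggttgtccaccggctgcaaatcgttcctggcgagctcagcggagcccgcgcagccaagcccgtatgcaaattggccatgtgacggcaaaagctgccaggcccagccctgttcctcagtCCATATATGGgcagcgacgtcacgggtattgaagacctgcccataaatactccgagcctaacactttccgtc
Prx, chr7:27499074-27499323: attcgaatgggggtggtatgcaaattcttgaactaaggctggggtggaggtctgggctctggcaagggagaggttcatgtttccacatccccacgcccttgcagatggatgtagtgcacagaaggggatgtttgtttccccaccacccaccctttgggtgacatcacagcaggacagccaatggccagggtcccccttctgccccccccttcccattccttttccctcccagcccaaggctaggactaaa
Pmp22 first start, chr11:63128732-63128981: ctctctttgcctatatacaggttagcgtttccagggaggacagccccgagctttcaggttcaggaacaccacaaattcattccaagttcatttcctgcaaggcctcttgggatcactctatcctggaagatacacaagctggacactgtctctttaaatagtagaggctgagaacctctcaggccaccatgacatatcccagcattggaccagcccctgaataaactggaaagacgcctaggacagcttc
Pmp22 later start, chr11:63131207-63131456: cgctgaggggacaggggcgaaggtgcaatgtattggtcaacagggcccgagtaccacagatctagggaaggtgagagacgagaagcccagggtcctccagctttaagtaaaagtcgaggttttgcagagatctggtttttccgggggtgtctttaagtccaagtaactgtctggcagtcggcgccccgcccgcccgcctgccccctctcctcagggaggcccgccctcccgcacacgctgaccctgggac
The motifs GCGNGGGCG (an EGR site), ACAAAG and ACAATG (SOX sites) and TATAAA were searched on both strands of windows that reach 50 bases past each start, so of 300 bases. None of these motifs occurred in the 10 member windows, which were 1 for Prx, 4 for Pmp22 and 5 for Egr2. Over all 32851 windows the shares with a match were 5.55%, 18.7%, 12.6% and 13.6% in the same order. The CArG box was looked for only after the Egr2 sequence had been read. It was in 4 of the 5 Egr2 windows, 3 of which overlap and hold the same box, and in no window of Prx or Pmp22. In both runs shown it lies from 72 to 63 bases before the start. Of all windows 535 (1.63%) hold one.

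The name Schwann cell and nerve root genes was set beside the other markers of myelinating Schwann cells, and the levels of these markers did not go together. Cldn19, a tight junction protein of the Schwann cell mesaxon, lay between 0.0126 and 0.0704 RPKM. Pmp22 lay between 55.8 and 81.4 RPKM, whereas Prx and Pmp2 lay between 0.0772 and 0.442 RPKM. Of 7 markers of myelinating Schwann cells, 4 had a mean below 1 RPKM. The exceptions were Pmp22, Drp2 at 6.16 to 10.3 RPKM, and Ncmap, listed under its older name A330049M08Rik, at 0.892 to 1.15 RPKM. The summed level of the list was 63.9, 63.6, 93.9 and 89.4 RPKM in WT vehicle and WT + SD and in G93A vehicle and G93A + SD, and it was mostly Pmp22. Sox10, which oligodendrocytes share with Schwann cells, stayed between 30.8 and 34.0 RPKM. The genes are therefore called by their names below and are not read as a measure of nerve root.

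**Figure D1:**
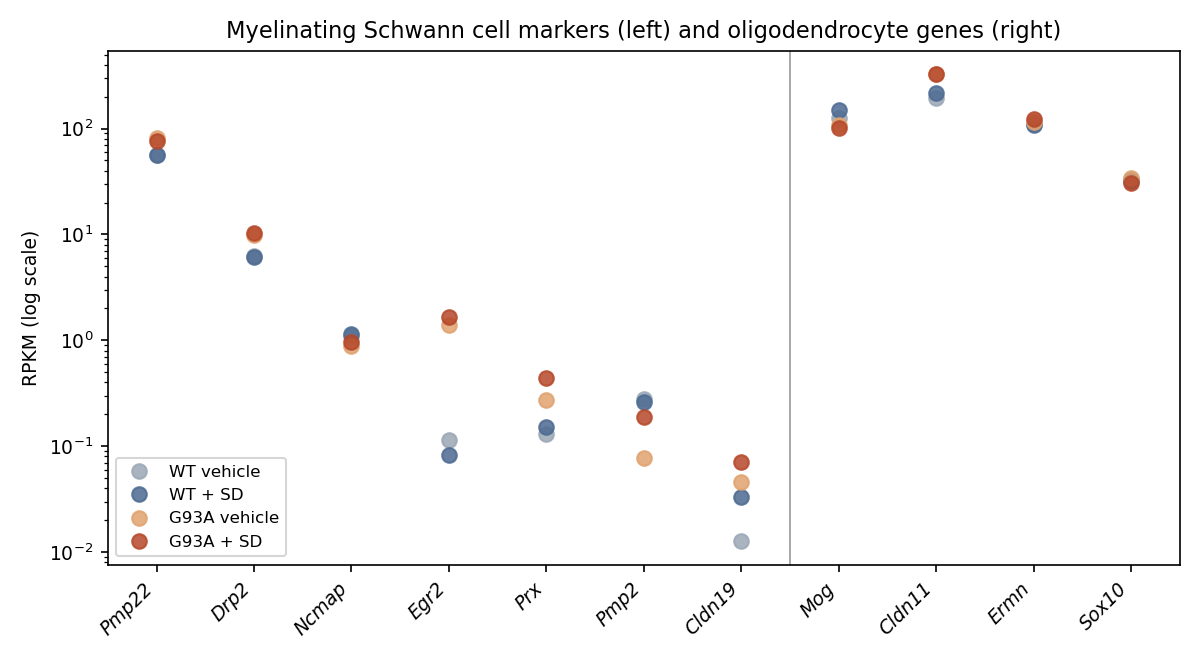
RPKM on a log axis for 7 markers of myelinating Schwann cells (left) and for Mog, Cldn11, Ermn and Sox10 (right), with 1 point for each of the 4 libraries. Pmp22 stands at 55.8 to 81.4 RPKM, whereas Prx, Pmp2 and Cldn19 stay below 1 RPKM in every library.

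The means over the 4 libraries were 67.2 RPKM for Pmp22, 0.818 RPKM for Egr2, 0.248 RPKM for Prx and 0.201 RPKM for Pmp2. Pmp22 was above 96.6% of all gene names, and the other members were above 28.6%, 20.2% and 19.1% of them. Pmp22 alone made up 97.0% to 99.1% of the summed level of the 4 genes in a library, and the other 3 together came to 0.496 to 2.31 RPKM. Pmp22 was the highest member in every library. In WT vehicle the order below it was Pmp2, Prx and Egr2, and in the G93A libraries it was Egr2, Prx and Pmp2. No spread is known from which to say whether neighbours in these orders differ.

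In G93A vehicle against WT vehicle, 2 of the 4 members were called higher, Egr2 and Prx, 1 was called lower, Pmp2, and Pmp22 fell short of the threshold. Over all names 14.4% were called higher and 5.31% lower. Prx, Pmp2 and Egr2 lie at low levels where calls are more frequent. Among the 2827 names with a mean of 0.1 to 1 RPKM, a set chosen after the values were seen, 27.2% were called higher and 10.6% lower. In G93A + SD against WT + SD, again Egr2 and Prx were called higher and 0 members lower, against 17.1% and 7.82% of all names, and 31.5% and 11.7% of the low names. These comparisons share no library. Both called Egr2 and Prx higher, as they did 11.6% of all names and 20.1% of the low names, and both called 0 members lower, as they did 2.98% of all names. By any amount, 3 members lay higher in both G93A libraries than in both WT libraries (39.7% of all names did), and Pmp2 lay lower in both (28% of all names). With 4 members and no test the counts are not read as a result, and the sizes for each gene follow.

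**Figure D2:**
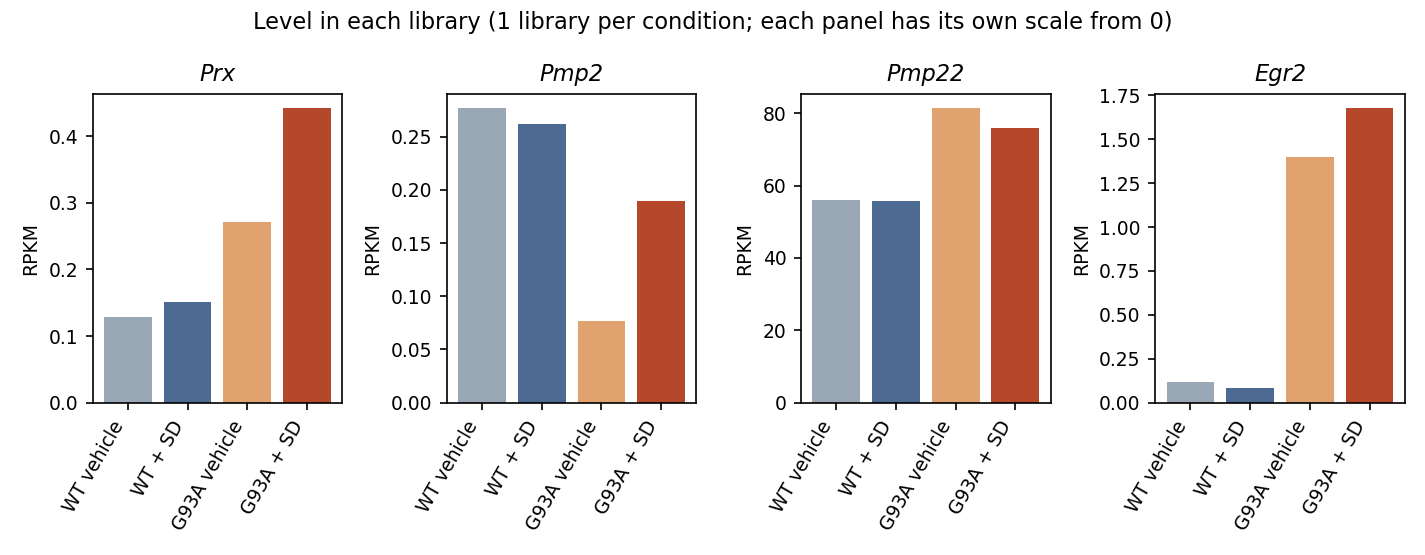
RPKM in each of the 4 libraries for Prx, Pmp2, Pmp22 and Egr2, with 1 bar per library and a separate axis from 0 in each panel. Prx, Pmp22 and Egr2 are higher in both G93A libraries than in both WT libraries, and Pmp2 is lower.

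Egr2 had 0.116 RPKM in WT vehicle, 0.0829 RPKM in WT + SD, 1.40 RPKM in G93A vehicle and 1.68 RPKM in G93A + SD. The G93A libraries were far above the WT libraries, and the lowest G93A value was 12.1 times the highest WT value. These values stood for an estimated 12.6 and 9.39 read pairs in the WT libraries without and with SD, against 157 and 192 in the G93A libraries. G93A vehicle was 12.1-fold above WT vehicle and G93A + SD was 20.2-fold above WT + SD, with log2 differences of 2.80 and 3.28. Among the low names, 21 of 2827 had a difference at least as high in the vehicle pair and 12 in the SD pair, Egr2 included. That set is cut on the mean of all 4 libraries. Egr2 reaches its floor of 0.1 RPKM through the G93A libraries, with a mean of 1.54 RPKM there and 0.0992 RPKM in WT. The rank is therefore a description and no support for the difference. The SD differences were -0.24 in WT and 0.25 in G93A, neither of which was called. Egr2 lies at chr10:67535475-67542188 of GRCm38 (plus strand). Its listed transcript has 2 exons and 2965 bases, and no other annotated gene overlaps it. None of its 2913 windows of 53 bases, the length of a read, occurs in a transcript of another gene (0%).

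The family of Egr2, its corepressors and other immediate early genes were taken as a list of 12 genes. In G93A vehicle against WT vehicle 7 were called higher and 0 lower, with a median log2 difference of 0.87, against a median of 0.046 over all names. In the SD pair 5 were called higher and 1 lower, with a median of 0.49, against 0.05 over all names. Of all names 14.4% were called higher and 5.31% lower in the vehicle pair, and 17.1% and 7.82% in the SD pair. Fos, a subunit of the AP-1 transcription factor, went from 5.78 to 23.4 RPKM between the vehicle libraries, and Junb, another AP-1 subunit, from 2.28 to 8.27 RPKM. Egr1 went from 8.99 to 21.0 RPKM under vehicle, and under SD it had 11.7 RPKM in WT and 17.3 RPKM in G93A, a log2 difference of 0.56 that was not called. Nr4a1, an orphan nuclear receptor, went from 2.82 to 6.28 RPKM between the vehicle libraries, and Nab2, which binds EGR proteins and represses their targets, from 2.97 to 6.02 RPKM. The difference of Egr2 was larger than that of each of the 12 genes in both pairs. Its relatives Egr3 and Egr4 were below 1 RPKM on average and were not called in either G93A against WT pair, with log2 differences of 0.26 and 0.39 under vehicle and -0.34 and -0.13 under SD. In SD against vehicle 0 genes of the list were called higher, while Egr4 was called lower in WT (-0.65) and Egr4 and Arc in G93A (-1.18 and -0.61). Of all names 2.25% were called higher and 2.8% lower with SD in WT, and 2.97% and 2.55% in G93A. Arc, a neuronal activity gene, was the gene called lower in the SD pair, with 7.27 RPKM in WT + SD and 3.99 RPKM in G93A + SD. These libraries hold RNA of whole tissue, so that more cells of a type and more RNA per cell cannot be told apart.

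**Figure D3:**
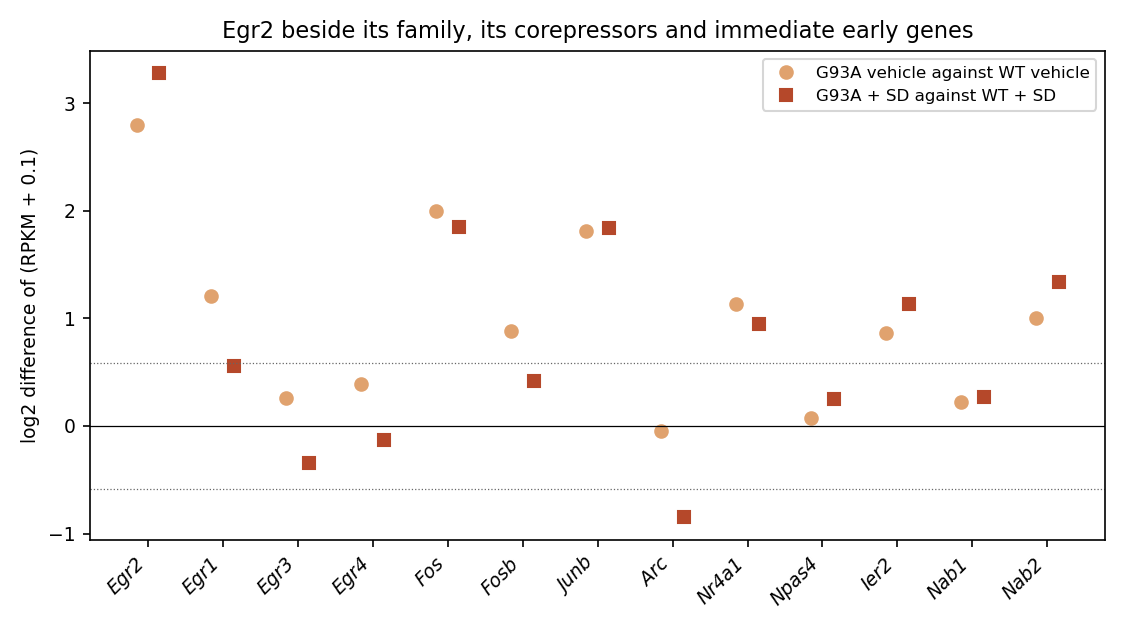
Difference on the scale of log2(RPKM + 0.1) between G93A and WT, under vehicle (circles) and under SD (squares), for Egr2, its family, Nab1, Nab2 and immediate early genes, with dotted lines at 1.5-fold. Egr2 has the highest point in both comparisons, at 2.80 and 3.28.

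Microglial and macrophage genes were higher in the same libraries as Egr2. Of 6 listed, 5 were called higher in both G93A against WT pairs, where 11.6% of all names were, P2ry12 being the exception. Their summed level was 64.4 RPKM in WT vehicle, 60.3 RPKM in WT + SD, 254 RPKM in G93A vehicle and 264 RPKM in G93A + SD. No marker of the list was at 0. Of 5 astrocyte genes 4 were called higher in the vehicle pair and 5 in the SD pair, against 14.4% and 17.1% of all names, with sums of 774, 717, 2850.9 and 3405.6 RPKM in the same order. The part of either cell type in the Egr2 result was not tested. Over the 4 libraries, the names with a mean of at least 1 RPKM whose pattern lay closest to that of Egr2 were Cd180, Top2a and Tlr2. The distance between their centred log2 profiles and that of Egr2 was 0.016, 0.063 and 0.064. Cd180 had 1.47 RPKM in WT vehicle, 1.24 RPKM in WT + SD, 10.7 RPKM in G93A vehicle and 12.9 RPKM in G93A + SD. Top2a had 0.339, 0.269, 3 and 3.36 RPKM in the same order. It passed the filter on the mean through the G93A libraries, where Egr2 is also high, so its nearness is no support. Of 12987 names compared, 20 lay within a distance of 0.25.

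Prx had 0.129 RPKM in WT vehicle, 0.150 RPKM in WT + SD, 0.271 RPKM in G93A vehicle and 0.442 RPKM in G93A + SD. The libraries did not overlap by genotype, and the lowest G93A value was 1.80 times the highest WT value. G93A vehicle was 2.10-fold above WT vehicle and G93A + SD was 2.94-fold above WT + SD, with log2 differences of 0.69 and 1.11. Of the low names, 23.2% and 17.5% differed at least as much upwards, so that the size of the Prx difference was common at this level. G93A + SD was 1.63-fold above G93A vehicle, a log2 difference of 0.55 that was just short of the threshold with the pseudocount, and WT + SD was 1.16-fold above WT vehicle (0.13). With no pseudocount SD against vehicle in G93A passed, at 0.71. With a pseudocount of 1 RPKM both G93A against WT calls of Prx were lost, at 0.17 under vehicle and 0.33 under SD.

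Prx has 2 rows, which hold the transcripts NM_019412 of 5433 bases and NM_198048 of 4841 bases. The first had 0.122, 0.144, 0.260 and 0.421 RPKM in WT vehicle and WT + SD and in G93A vehicle and G93A + SD, and the second had 0.137, 0.157, 0.282 and 0.463 RPKM. Both rows give the same order of libraries. They are not independent, since 98.9% of the 53-base windows of the second also occur in the first. Behind the first row stood an estimated 24.3 and 29.9 read pairs in the WT libraries without and with SD, and 53.6 and 88.2 in the G93A libraries. The gene lies at chr7:27499324-27520214 (plus strand) and is overlapped on the minus strand by the antisense gene Gm15541. Of the windows of NM_019412, 2.38% occur in Gm15541, and no source used here says that strand was used in counting, so that reads of this stretch cannot be assigned to either gene.

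Drp2, the partner of periaxin, had 6.25 RPKM in WT vehicle, 6.16 RPKM in WT + SD, 9.89 RPKM in G93A vehicle and 10.3 RPKM in G93A + SD, and was called higher in both G93A pairs (0.65 and 0.73). Dag1, which encodes the dystroglycan they attach to, had 16.7, 16.5, 24.1 and 25.2 RPKM in the same order, with differences of 0.53, short of the threshold, and 0.61. Both genes stood well above Prx per length in every library. Ahnak, a large scaffold protein related to periaxin, had 2.45, 2.25, 7.06 and 10.6 RPKM in that order. It shared with Prx the highest value in G93A + SD, with log2 differences of 1.49 and 2.19 in the G93A pairs. Genes of fibroblasts in meninges and nerve sheath also had their highest sum there. The 10 genes summed to 15.1, 15.3, 17.7 and 24.3 RPKM in WT vehicle and WT + SD and in G93A vehicle and G93A + SD. Of them 4 were called higher in G93A + SD against G93A vehicle, where 2.97% of all names were, and Slc47a1 was listed at 0 in WT vehicle. Their part in the Prx values was not tested. Among the names closest in pattern to Prx was Id3, at a distance of 0.079, and 119 names lay within 0.25.

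Pmp22 had 56.0 RPKM in WT vehicle, 55.8 RPKM in WT + SD, 81.4 RPKM in G93A vehicle and 75.8 RPKM in G93A + SD. The WT libraries were nearly equal and both G93A libraries lay above them. G93A vehicle was 1.45-fold above WT vehicle and G93A + SD was 1.36-fold above WT + SD, with log2 differences of 0.54 and 0.44 that did not reach the threshold. Between 3703 and 5561 read pairs were estimated for Pmp22 in a library, the deepest coverage of the members. Of the 12987 names with a mean of at least 1 RPKM, 14.2% and 21.1% differed at least as much upwards. The SD differences were -0.01 in WT and -0.10 in G93A, neither of which was called. Pmp22 lies at chr11:63128982-63159547 (plus strand), with no overlapping gene, and none of its 1748 windows of 53 bases occurs in another gene (0%). The table holds 1 row for it, NM_008885, paired in the annotation with a transcript of 5 exons that starts at 63131512. The earlier start at 63128982, which is known as the one used by myelinating Schwann cells, has no row of its own, so that the values do not separate the starts.

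Pmp22 belongs to a small family of membrane proteins, of which 5 of 6 listed relatives were matched. In both G93A pairs 4 of the 5 were called higher and 0 lower, with a median log2 difference of 1.12 in each pair, against medians of 0.046 and 0.05 over all names, of which 11.6% were called higher in both pairs. Emp1 had 2.75 RPKM in WT vehicle, 2.18 RPKM in WT + SD, 18.7 RPKM in G93A vehicle and 26.2 RPKM in G93A + SD. Emp3 had 2.27, 1.40, 13.0 and 16.1 RPKM in the same order, Emp2 had 8.51, 7.49, 18.6 and 16.4 RPKM, and Tmem47 had 45.6, 47.7, 72.4 and 86.7 RPKM. Pmp22 had a smaller difference than each of these 4 relatives in both pairs, and Perp, at 1.19 to 1.30 RPKM, was not called in either pair. The names closest to the Pmp22 pattern were Slc35c1, Ddx31 and Akt2, at distances of 0.022, 0.024 and 0.038. Such a pattern was frequent, with 1405 names within 0.25.

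**Figure D4:**
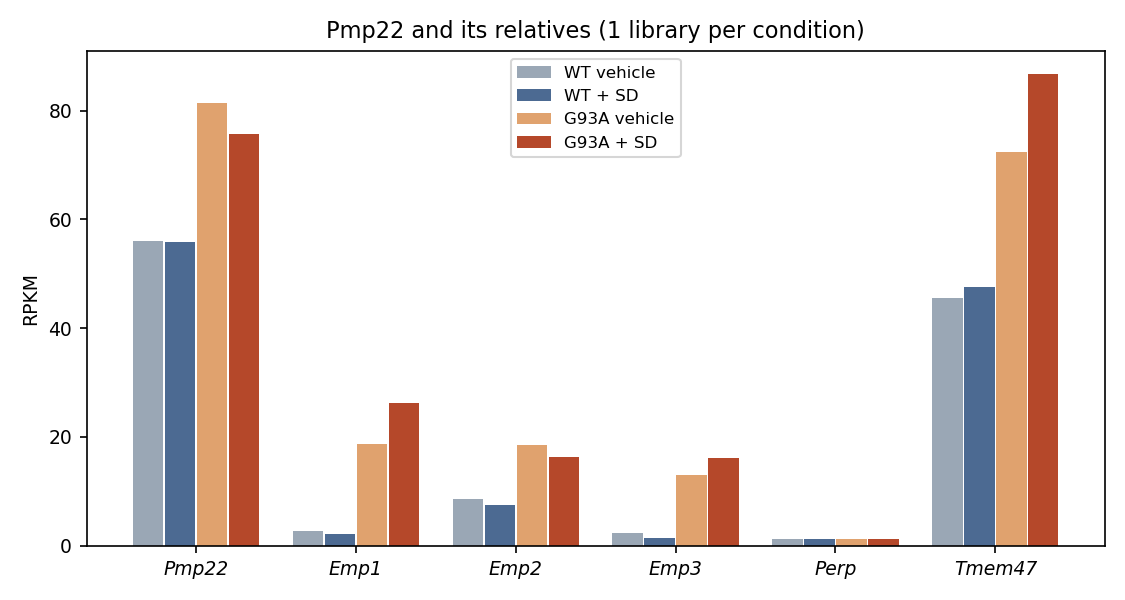
RPKM of Pmp22, Emp1, Emp2, Emp3, Perp and Tmem47, with 1 bar for each of the 4 libraries. Pmp22 goes from 56.0 to 81.4 RPKM between WT vehicle and G93A vehicle, and Emp1 from 2.75 to 18.7 RPKM.

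Pmp2 had 0.277 RPKM in WT vehicle, 0.262 RPKM in WT + SD, 0.0772 RPKM in G93A vehicle and 0.189 RPKM in G93A + SD. It was lowest in G93A vehicle, and both G93A libraries lay below both WT libraries. WT vehicle was 3.59-fold above G93A vehicle (log2 difference -1.09), which was called, and WT + SD was 1.39-fold above G93A + SD (-0.32), which was not. Of the low names, 2.72% and 22.3% differed at least as much downwards. G93A + SD was 2.45-fold above G93A vehicle (0.71) and was called, as were 2.97% of all names and 9.37% of the low names in this direction, while 0 members were called lower there, against 2.55% of all names and 7.82% of the low names. Pmp2 was the member with a call in an SD comparison. The reads behind it were few, with 14.3 and 14.1 estimated pairs in the WT libraries without and with SD, and 4.13 and 10.3 in the G93A libraries. Both calls rest on the G93A vehicle library, where the number is the lowest. In WT + SD against WT vehicle the difference was -0.06, and 0 of the 4 members were called, against 2.25% of all names higher and 2.8% lower, and 7.43% and 8.81% of the low names.

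Pmp2 lies at chr3:10179851-10183929 (minus strand), with 4 exons and 1408 bases in its transcript. The protein-coding gene Gm37389 overlaps it on the same strand and shares 86.6% of its 53-base windows, so that most of its reads could belong to either gene and its level is uncertain to that extent. Of 13 listed relatives among the fatty acid and retinoid binding proteins, 11 were matched. In the vehicle pair 3 were called higher and 2 lower, and in the SD pair 4 were called higher and 0 lower. Of all names 14.4% were called higher and 5.31% lower in the vehicle pair, and 17.1% and 7.82% in the SD pair. Of the 11, 7 had a mean below 1 RPKM. Fabp4 and Crabp2 among them lay at 0.1 to 1 RPKM, and the others lay below 0.1 RPKM. Of the names at 0.1 to 1 RPKM 27.2% were called higher and 10.6% lower in the vehicle pair, and 31.5% and 11.7% in the SD pair. Fabp7, the form found in astrocytes and radial glia, had 32.3 RPKM in WT vehicle, 35.0 RPKM in WT + SD, 203 RPKM in G93A vehicle and 191 RPKM in G93A + SD. Fabp5, the epidermal form and a neighbour of Pmp2, had 27.4, 30.1, 58.8 and 43.2 RPKM in that order. Fabp3, the heart form, was lower in both G93A libraries, as Pmp2 was, with 2.64, 2.92, 1.58 and 1.94 RPKM. Crabp1, a retinoic acid binding protein, was also lower in both, with 6.15, 5.45, 4.22 and 4.58 RPKM. The genes called lower in the vehicle pair were Fabp3 (-0.71) and Rbp2, which was at 0.0699 RPKM in WT vehicle and listed at 0 in G93A vehicle. Of 9 listed oligodendrocyte genes, 1 was called higher and 0 lower in the vehicle pair, and 1 higher and 2 lower in the SD pair. The shares of all names were 14.4% higher and 5.31% lower in the vehicle pair, and 17.1% and 7.82% in the SD pair. The 9 genes summed to 981, 1001.8, 998 and 926 RPKM in WT vehicle and WT + SD and in G93A vehicle and G93A + SD. By any amount 4 of the 9, Mog, Mobp, Aspa and Ugt8a, were lower in both G93A libraries than in both WT libraries, 3, Cldn11, Myrf (listed as Gm98) and Ermn, were higher in both, and 2 were neither, against 28% of all names lower and 39.7% higher. Cldn11, the gene called higher, had 195 and 217 RPKM in the WT libraries and 326 and 327 RPKM in the G93A libraries. The names closest in pattern to Pmp2 were Ica1l, 2810001G20Rik and Lyrm7, at distances of 0.052, 0.11 and 0.14, and 6 names lay within 0.25.

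**Figure D5:**
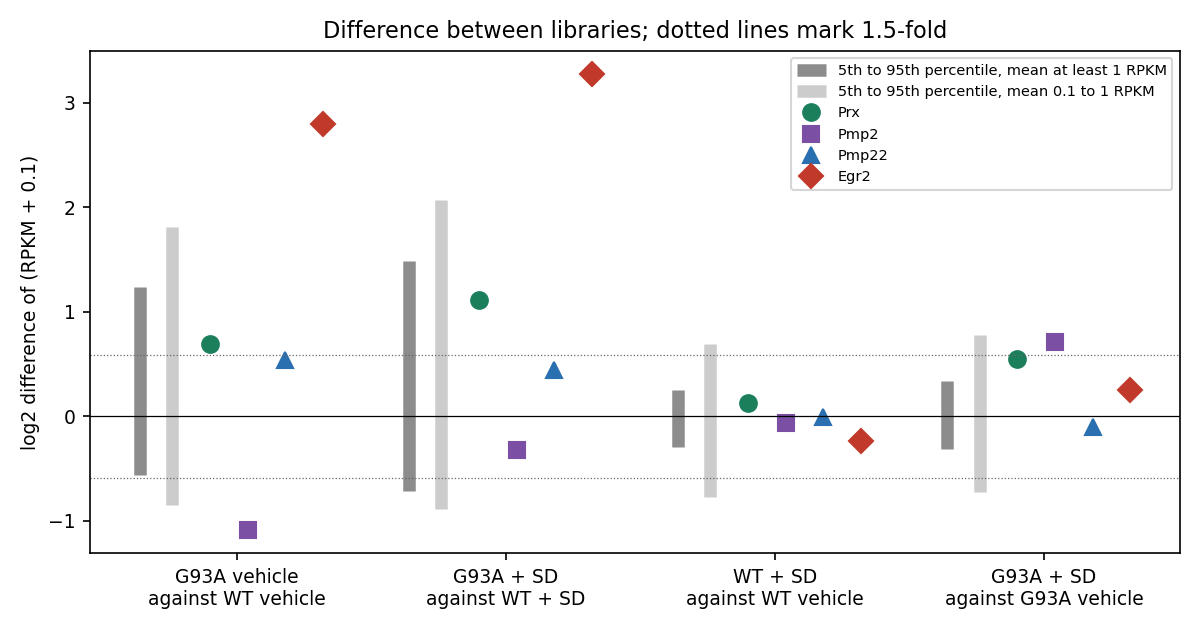
Difference on the scale of log2(RPKM + 0.1) in the 4 comparisons for Prx, Pmp2, Pmp22 and Egr2, with grey bars from the 5th to the 95th percentile of names by mean level and dotted lines at 1.5-fold. The mean is over the 4 libraries, including those compared. Egr2 lies above both bars in the G93A against WT comparisons and Pmp2 lies below both in the vehicle pair, while in WT + SD against WT vehicle the 4 genes stay between -0.24 and 0.13.

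Other genes of the Schwann cell programme were compared with the shares over all names, which were 14.4% higher and 5.31% lower in the vehicle pair and 17.1% and 7.82% in the SD pair. Of 21 peripheral myelin partners, many of which oligodendrocytes also express, 3 were called higher and 1 lower in the vehicle pair, and 5 higher and 3 lower in the SD pair, with median log2 differences of -0.04 and -0.06, so that the vehicle counts were near those shares. Those called higher under vehicle were Gldn, which clusters channels at peripheral nodes (0.556 to 1.22 RPKM), Litaf, an endosomal protein (29.9 to 47.7 RPKM), and Drp2. Sgcd, which encodes a sarcoglycan, was the gene called lower, from 0.776 to 0.459 RPKM. Of 20 regulators and receptors of Schwann cells, 8 were called higher in each G93A pair, and 2 lower in the vehicle pair and 0 in the SD pair, with medians of 0.24 and 0.27. Adgrg6, listed as Gpr126, is the receptor that starts Schwann cell myelination and went from 1.45 RPKM in WT to 4.34 RPKM in G93A under vehicle. Tead1, a transcription factor of the Hippo pathway, had a log2 difference of 1.14, Jun had 9.16 against 18.4 RPKM, and Itga6, a laminin receptor subunit, had 7.75 against 15.3 RPKM. Foxd3 (-0.85) and Itgb4 (-0.68) were the genes called lower under vehicle. Erbb3 was lower in both pairs without a call (-0.36 and -0.55), and Pou3f1 had 0.04 and 0.10. Which cells these values came from was not tested. Of 10 genes of non-myelinating Schwann cells, 2 were called higher and 2 lower in the vehicle pair, and 3 higher and 2 lower in the SD pair. Gfra1, a receptor for GDNF, had 16.3 and 33.0 RPKM in the vehicle libraries of WT and G93A and Sox2, a transcription factor of immature glia, had 11.1 and 18.1 RPKM, and both were called higher in both pairs. Scn7a, a sodium channel of these cells, went from 0.863 RPKM in WT to 0.522 RPKM in G93A under vehicle. In SD against vehicle, called genes numbered 0 or 1 in each of these 3 lists for either genotype and direction. The shares of all names there were 2.25% higher and 2.8% lower in WT, and 2.97% and 2.55% in G93A.

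In both SD pairs 0 of the 4 members were called in the same direction, as were 0.38% of all names higher and 0.53% lower. Names within 250 kb of a member with a mean of at least 0.1 RPKM numbered 14 for Prx, 5 for Pmp2, 2 for Pmp22 and 1 for Egr2, and 0 of them were called in either SD pair. In G93A vehicle against WT vehicle 3 of the neighbours of Prx were called higher and 1 lower, 2 of those of Pmp2 were called higher, Fabp4 and Fabp5, and 1 of those of Pmp22 was called higher, Cdrt4, where 14.4% of all names were called higher and 5.31% lower. In G93A + SD against WT + SD the counts were 3 higher and 1 lower near Prx, 1 higher near Pmp2 (Fabp4) and 1 higher near Pmp22 (Cdrt4), where 17.1% of all names were called higher and 7.82% lower.

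Markers of other cells that a dissected cord could carry were also summed. Sensory neuron genes of the dorsal root ganglion summed to 2.28 to 2.77 RPKM over 8 matched genes, of which 7 had a mean below 1 RPKM, and Scn10a was listed at 0 in both WT libraries. Skeletal muscle genes summed to 0.859 to 1.05 RPKM over 5 genes. The 3 matched perineurium genes summed to 46.7 to 55.8 RPKM, most of it Slc2a1, which vessels also express. The 4 endothelial genes summed to 23.1, 20.6, 21.1 and 14.6 RPKM in WT vehicle and WT + SD and in G93A vehicle and G93A + SD, and the 6 motor neuron genes to 79.1, 71.9, 60.3 and 44.2 RPKM.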

How the data were processed

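RNA of the lumbar cord was measured in 4 libraries, grouped by the sample labels. The authors' methods describe polyA selection, reads of 53 bp, STAR with GRCm38, and HTSeq with Ensembl genes. The deposited table lists RefSeq transcripts in a unit taken as RPKM from the values, since its header names none. Its ratio columns, the authors' own comparisons, were not used. The members and gene lists were chosen with earlier results of these data known.

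Rows of a name were averaged, and names were compared as log2(RPKM + 0.1) with no filter, scaling or test. Read pairs were estimated from the most frequent low product of value and GENCODE M21 transcript length, which 23026 of 23750 rows have, so no interval was derived. Genes named are the members, up to 5 genes per list with the largest difference at a mean of at least 1 RPKM, and the 3 nearest patterns. Any other gene was named after its values had been seen. Some listed genes and nearest names are not reported here. The alternatives were pseudocounts of 0 and 1 RPKM, median-ratio scaling, other ways to join rows, 2-fold and level filters. The calling code was run on made-up values without noise, at levels above those of Prx, Pmp2 and Egr2. That run checks the code only, and says nothing of how reliable a call is. Software was pandas 2.3.3 and numpy 2.4.6 under Python 3.11.15, with matplotlib 3.10.9 for plots.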

Additional observations from a re-analysis of the deposited data

Results flagged for a closer look

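For 2 members the SD libraries lay on opposite sides of vehicle in the genotypes, by any amount. Pmp2 was lower with SD in WT (-0.06) and higher in G93A (0.71), and the G93A difference exceeded the WT difference by 0.76 on the log2 scale. Egr2 was lower with SD in WT (-0.24) and higher in G93A (0.25), with a difference of 0.48 between them. With 1 library per condition neither was tested.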

How the results depend on the processing

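The labels carry no replicate numbers, so there was no replicate block to fit. A fit of genotype across both treatments, which would take its error from the disagreement of 2 pairs of libraries, was not made. With 1 library per condition none was left out. Of 80 member differences recomputed under alternatives, 0 turned in sign and 68 stayed on their side of 1.5-fold without moving by as much as that. With a pseudocount of 1 RPKM, which outweighs the low members, the calls of Prx (0.17 under vehicle, 0.33 under SD) and both calls of Pmp2 (-0.25 for G93A vehicle against WT vehicle and 0.14 for G93A + SD against G93A vehicle) were lost, while Egr2 stayed called at 1.10 and 1.31. With no pseudocount Egr2 was at 3.60 and 4.34, and Pmp2 at -1.84 and 1.30. Prx in G93A + SD against G93A vehicle was then called at 0.71, as it was at 0.62 with its rows summed. Median-ratio scaling changed no member call.

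Names called numbered 3678 for G93A against WT under vehicle, 4649 for G93A against WT under SD, 942 for SD against vehicle in WT and 1031 for SD against vehicle in G93A. In the same order it was 2259, 3075, 246 and 282 at a mean of at least 1 RPKM, 1578, 2068, 273 and 285 at 2-fold, and 1907, 2732, 133 and 197 with a pseudocount of 1 RPKM. With no pseudocount it was 5697, 2938 and 2992 without the second comparison, whose number stayed within 1.5 times. Names with a mean of 0.1 to 1 RPKM, a set added after seeing the data, gave 1071, 1222, 459 and 486. Depth limits Pmp2 most, with 4.13 estimated read pairs in G93A vehicle.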
